A study of Mus musculus with 8 samples.

Results

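The 36 genes described here encode the machinery with which a presynaptic terminal stores neurotransmitter in vesicles and releases it. They were taken by gene symbol from a table of 54532 genes, in which each symbol had exactly 1 row, and all 36 passed the filter on low counts that left 16745 tested genes. The table holds bulk RNA-seq read counts of the medial prefrontal cortex (mPFC), the part of the frontal cortex that takes part in control of behaviour and in memory for rewards. Adult male C57BL/6 mice had been trained in conditioned place preference (CPP), in which an animal comes to prefer the compartment it associates with a drug, here methamphetamine per the series title. Of the 8 libraries, 4 came from the retrieval group and 4 from the non-retrieval group, and each library pooled tissue from 2 to 3 mice, collected 1 h after the CPP test. How mice of the non-retrieval group were treated on the test day is left out of the labels, so memory retrieval and exposure to the apparatus cannot be told apart.

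At a synapse, vesicles filled with transmitter dock at the active zone, a protein scaffold opposite the postsynaptic membrane. There the SNARE proteins on the vesicle and on the plasma membrane zip together, and calcium entering through channels is sensed by synaptotagmins and related proteins, which trigger fusion. After fusion the SNARE complex is taken apart and the vesicle is recycled. These proteins are made in the neuron's cell body and shipped to the axon terminals, so mRNA in the mPFC comes largely from neurons whose cell bodies lie there.

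The upstream sequences of 4 members are shown. Bsn was taken because its mRNA rose and Cplx1 because it came closest to a fall. Syn1 and Unc13a are examples of members that hold a site known for an activity-regulated or neuron-restrictive transcription factor. Each sequence is the 250 bases before a RefSeq transcription start in GRCm38.p6, read 5′ to 3′ on the gene's strand, with matches to the searched motifs in capitals.
Bsn, chr9:108190384-108190633 on the minus strand: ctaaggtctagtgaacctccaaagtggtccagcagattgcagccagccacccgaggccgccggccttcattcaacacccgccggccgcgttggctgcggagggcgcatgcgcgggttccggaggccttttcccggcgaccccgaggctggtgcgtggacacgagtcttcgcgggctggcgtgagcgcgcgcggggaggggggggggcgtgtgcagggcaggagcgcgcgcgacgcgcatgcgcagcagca
Cplx1, chr5:108550028-108550277 on the minus strand: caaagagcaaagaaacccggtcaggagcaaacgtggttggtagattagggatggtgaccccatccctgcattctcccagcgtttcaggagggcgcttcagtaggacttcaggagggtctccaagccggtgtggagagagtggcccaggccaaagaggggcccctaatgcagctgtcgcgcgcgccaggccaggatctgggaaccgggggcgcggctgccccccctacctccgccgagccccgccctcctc
Syn1, chrX:20920919-20921168 on the minus strand: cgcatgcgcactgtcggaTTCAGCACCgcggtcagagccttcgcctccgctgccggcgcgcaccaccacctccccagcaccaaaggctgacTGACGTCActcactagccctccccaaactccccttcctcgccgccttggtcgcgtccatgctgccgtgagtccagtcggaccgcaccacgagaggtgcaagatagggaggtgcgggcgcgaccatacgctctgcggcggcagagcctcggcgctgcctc
Unc13a, chr8:71671758-71672007 on the minus strand: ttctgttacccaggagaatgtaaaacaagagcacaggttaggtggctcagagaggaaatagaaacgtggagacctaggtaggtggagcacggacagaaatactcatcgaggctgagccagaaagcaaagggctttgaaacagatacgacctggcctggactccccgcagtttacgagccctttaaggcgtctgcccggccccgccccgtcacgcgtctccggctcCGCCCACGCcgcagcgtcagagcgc
RefSeq windows were matched by symbol for 26 of the 36 members, which gave 34 windows, and Doc2b was not among them. Both strands were searched for the cAMP response element TGACGTCA, the AP-1 site TGANTCA, the EGR site GCGTGGGCG and the left part of the REST site (RE1), TTCAGCACC, and no match overlapped another. Syn1 held the cAMP response element, 159 to 152 bases before the start, and the RE1 part, 232 to 224 bases before it. Among all 32851 windows these were found in 1.55% and 0.301%. Unc13a held the EGR site on the opposite strand, 25 to 17 bases before its start (0.536% of all windows), and the AP-1 site was found in Erc2 and in Rph3a (6.75% of all windows). The windows of Erc2 and Rph3a are not shown. None of the searched letters stood in the windows of Bsn or Cplx1. A match describes the letters and does not show that a factor binds there.

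Library totals ran from 25013503 to 29547978 counts, and 23474 to 24671 genes had at least 1 count. Levels are given as CPM, the counts of a gene scaled to a common library size with TMM factors, with the SD over 4 libraries. Fos, an immediate early gene used as a marker of active neurons, stood at 55.1 to 65.4 CPM in retrieval libraries and at 8.66 to 19.1 CPM in non-retrieval libraries. Slc17a7, the vesicular glutamate transporter of cortical excitatory neurons, averaged 1995 ± 121 CPM in retrieval and 2081 ± 136 CPM in non-retrieval (SD, n = 4 each), and all marker lists of the cell types examined were detected. The summed level of 12 myelin markers ran from 4176 to 6051 CPM in retrieval and from 3444 to 4062 CPM in non-retrieval. Retrieval replicates 2 and 4 held the most. The summed level of 10 striatal projection neuron markers was 430.4 CPM in retrieval replicate 2, against 244 to 302 CPM in the other retrieval libraries and 238 to 286 CPM in non-retrieval, so that library stood apart. In bulk tissue, fewer cells of a type and less RNA per cell cannot be told apart.

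Release genes were abundant in this tissue. Of the 36 members, 27 averaged at least 100 CPM, a level that 13.6% of tested genes reached, and 23 were among the top 5% of tested genes. Both comparisons used CPM not divided by length, and the members had longer gene models than all tested genes (median 6911 against 4032 bases). Together the members took up 1.96% to 1.99% of the counts in retrieval libraries and 2.03% to 2.08% in non-retrieval libraries. Per kilobase of gene model, the scale on which different genes can be compared, Snap25, the plasma-membrane SNARE with a pair of SNARE motifs, stood highest at 380.3 CPM per kilobase over all 8 libraries. The complexins Cplx1 (316) and Cplx2 (280.2), the vesicle protein Syp (259.5), the vesicle tether Syn1 (259), Rab3a (253) and the vesicle SNARE Vamp2 (246) followed on the same scale. The lowest were Syn3 (1.13), Sv2c (2.40), Unc13b (2.49), Doc2b (2.85) and Unc13c (3.84 CPM per kilobase). Snap25 was 335-fold above Syn3.

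**Figure D1:**
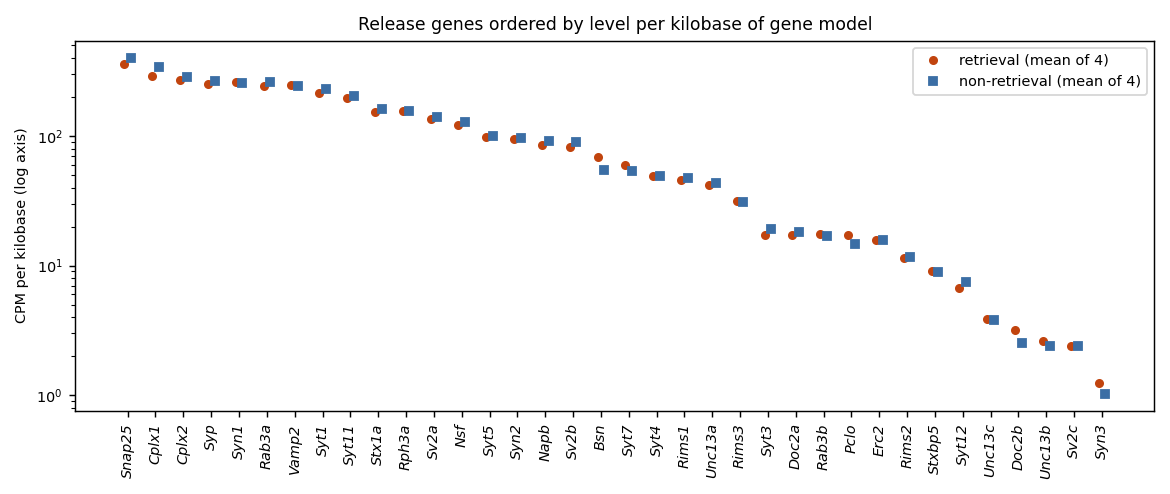
Mean level of each of the 36 release genes per kilobase of gene model (log axis), for retrieval (circles) and non-retrieval (squares), 4 libraries each, ordered by the mean of all 8. Levels run from 380.3 (Snap25) to 1.13 (Syn3) CPM per kilobase, and the symbols of the groups nearly coincide for most genes.

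The comparison of retrieval with non-retrieval asks which release genes differ in the mPFC 1 h after the test. Of the 36 members, Bsn (encoding the scaffold bassoon) and Doc2b (a calcium sensor) rose by 0.33 on the log2 scale, none fell, and 34 did not pass at an adjusted p under 0.05 (edgeR quasi-likelihood test, Benjamini-Hochberg adjustment over all 16745 tested genes). Over all tested genes, 4.57% passed, 3.67% as higher and 0.902% as lower, and among the 9809 with a mean of at least 10 CPM, 5.89% passed, so 2 of 36 is near the background. At an unadjusted p under 0.05, 5 members were higher and 3 lower, against 18.5% of tested genes in either direction. Under DESeq2, Bsn and Doc2b were again past the threshold as higher and Cplx1 as lower, and under limma-voom Bsn as higher and Cplx1 as lower. No member was called with the myelin marker level as a covariate or without retrieval replicates 2 and 4, the libraries highest in those markers. Bsn then stood at 0.15 and 0.27 (edgeR adjusted p = 0.631 and 0.183) and Doc2b at 0.20 and 0.23 (edgeR adjusted p = 0.586 and 0.338). The covariate did not overlap between the groups (mean log2 CPM 6.95 to 7.41 in retrieval, 6.72 to 6.92 in non-retrieval). It therefore follows the group, and the fit cannot cleanly separate them. The other setting left fewer retrieval libraries. Over all genes these settings called 120 and 382 genes, against 766 in the reported test. The median log2 fold change of the members was -0.03, beside -0.01 for all tested genes, and 13 members had positive and 23 negative values. All 36 fold changes lay between -0.22 and 0.33 on the log2 scale, with standard errors of 0.05 to 0.11. In simulated counts of the same size, a log2 change of 0.3 was recovered for 24% of genes and a change of 1 for 82%. These shares were not split by level, and most members were more abundant than most tested genes. They therefore do not give how often a change in a member would be missed, which was not tested.

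**Figure D2:**
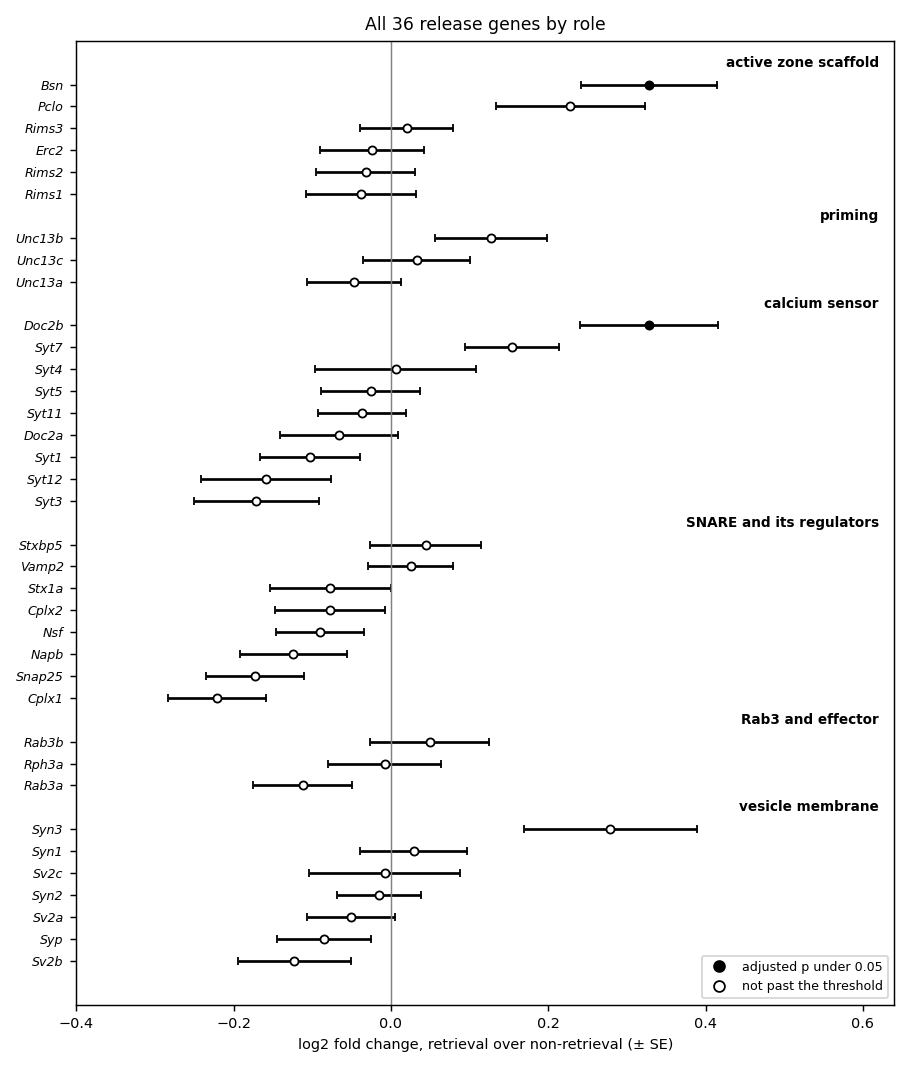
Log2 fold change of retrieval over non-retrieval (points, ± SE) for all 36 release genes, grouped by role. Filled points mark an adjusted p under 0.05: Bsn and Doc2b, both at 0.33, and the lowest value is that of Cplx1 at -0.22.

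The active zone scaffold held the member with the most counts behind a rise. Bsn (ENSMUSG00000032589; chromosome 9, 108096022 to 108190384, minus strand, GRCm38) encodes bassoon, a giant protein that organises the active zone. Bsn stood at 989.5, 1166, 1127 and 1111 CPM in retrieval replicates 1 to 4, against 863, 1035, 870.5 and 733 CPM in non-retrieval replicates 1 to 4. The groups overlapped, since retrieval replicate 1 lay below non-retrieval replicate 2, while the other 3 retrieval libraries lay above every non-retrieval library. Its log2 fold change was 0.33 (SE 0.09, 95% interval 0.15 to 0.51, edgeR adjusted p = 0.0371). The call ended, at edgeR adjusted p from 0.0752 to 0.129, on leaving out any 1 of retrieval replicates 2, 3 and 4 and non-retrieval replicates 1, 3 and 4. When a per-library offset took out trends with gene length and GC, the log2 fold change was 0.14 (edgeR adjusted p = 0.145).

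Pclo, which encodes piccolo, the scaffold most closely related to bassoon, stood at 423, 375, 385 and 353 CPM in the retrieval libraries, against 368, 378, 298 and 266 CPM in the non-retrieval libraries. The spread came mainly from non-retrieval replicates 3 and 4, which were low, while the other non-retrieval libraries lay within the retrieval range. Its log2 fold change was 0.23 (SE 0.10, edgeR adjusted p = 0.207), and without a filter on low counts it passed (edgeR adjusted p = 0.027). The RIM genes, whose proteins bind vesicle-bound Rab3 and recruit calcium channels, and Erc2, which encodes the scaffold CAST, had values near 0: Rims1 -0.04, Rims2 -0.03, Rims3 0.02 and Erc2 -0.02 on the log2 scale, each with an SE of 0.06 or 0.07. The 95% intervals of these 4 genes lay between -0.19 and 0.145. Bsn and Pclo, the scaffold genes with the highest values, also have the longest gene models of the 6, at 15938 and 22457 bases.

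The priming genes encode the Munc13 proteins, which open syntaxin so that SNARE complexes can form. Unc13a, the main isoform of excitatory synapses, stood at 498, 561, 534 and 537 CPM in the retrieval libraries and at 519.9, 581, 547 and 553 CPM in the non-retrieval libraries. The groups overlapped throughout (log2 fold change -0.05, SE 0.06, edgeR adjusted p = 0.723). With the length and GC offset its value was -0.19 (edgeR adjusted p = 0.00525), which is past the threshold. Unc13b averaged 59.2 ± 3.20 CPM in retrieval and 54.2 ± 4.27 CPM in non-retrieval, and Unc13c 34.2 ± 1.36 CPM in retrieval and 33.4 ± 1.31 CPM in non-retrieval (SD, n = 4 each). Neither passed the test, and in both genes the ranges of the groups overlapped. Exons of Unc13a share 495 bases with Colgalt1 on the opposite strand, and reads there cannot be assigned without strand.

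Of the 9 synaptotagmin and Doc2 genes, grouped here under calcium sensing although not all bind calcium, Doc2b rose and 8 did not pass. Doc2b (ENSMUSG00000020848; chromosome 11, 75768966 to 75796049, minus strand) encodes a double-C2-domain protein with high affinity for calcium that has been linked to spontaneous and asynchronous release. Doc2b stood at 13.0, 14.3, 12.9 and 15.2 CPM in retrieval replicates 1 to 4, against 11.2, 11.1, 10.4 and 11.4 CPM in non-retrieval replicates 1 to 4. The lowest retrieval library exceeded the highest non-retrieval one, as was the case for 6.59% of tested genes. Its log2 fold change was 0.33 (SE 0.09, 95% interval 0.14 to 0.51, edgeR adjusted p = 0.0410), on 275 to 419 counts per library. Of the 8 runs with 1 library left out, the call held without retrieval replicate 1 alone, and the others gave edgeR adjusted p from 0.0591 to 0.155. It was also lost in limma-voom (adjusted p = 0.0509), without a filter on low counts (edgeR adjusted p = 0.0517) and without scaling factors (edgeR adjusted p = 0.0503), with log2 fold changes of 0.32 to 0.33.

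Doc2a, the paralog of Doc2b more abundant here, averaged 48.6 ± 3.03 CPM in retrieval and 50.8 ± 4.63 CPM in non-retrieval (SD, n = 4 each; log2 fold change -0.07, SE 0.08). Doc2b per kilobase amounted to 0.178, 0.180, 0.184 and 0.190 of Doc2a in the retrieval libraries, against 0.161, 0.127, 0.132 and 0.141 in the non-retrieval libraries. The ratio did not overlap between the groups. Exons of Doc2a share 1103 of 2803 bases with Ino80e on the opposite strand, so its count and this ratio depend on how reads from that stretch were assigned.

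Syt1, the main sensor of fast synchronous release in forebrain, stood at 2006, 1699, 1737 and 1745 CPM in the retrieval libraries and at 2040.3, 1916, 1881 and 1879 CPM in the non-retrieval libraries. In 3 retrieval libraries it lay below every non-retrieval library, while retrieval replicate 1 lay within the non-retrieval range (log2 fold change -0.10, SE 0.06, edgeR adjusted p = 0.417). With the length and GC offset its value was -0.135 (edgeR adjusted p = 0.0479). Syt7, a slow, high-affinity sensor of asynchronous release and facilitation, stood at 416, 435, 440.1 and 456 CPM in the retrieval libraries and at 379, 423, 397 and 373 CPM in the non-retrieval libraries. Only non-retrieval replicate 2 reached into the retrieval range (log2 fold change 0.15, SE 0.06, edgeR adjusted p = 0.174).

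Syt3, another high-affinity sensor, averaged 53.2 ± 6.00 CPM in retrieval and 59.9 ± 3.79 CPM in non-retrieval (SD, n = 4 each; log2 fold change -0.17, SE 0.08, edgeR adjusted p = 0.259). With the length and GC offset it was at -0.19 (edgeR adjusted p = 0.0421). Syt12, a synaptotagmin that does not bind calcium, averaged 37.2 ± 3.11 CPM in retrieval and 41.5 ± 4.10 CPM in non-retrieval (edgeR adjusted p = 0.326). Syt4, known in rodents as an activity-induced synaptotagmin, had a log2 fold change of 0.01 (SE 0.10). Its levels varied more between libraries than between groups, with 236 CPM in retrieval replicate 1 and 223 CPM in non-retrieval replicate 1, against 158 to 189.9 CPM in the other retrieval libraries and 173 to 184 CPM in the other non-retrieval libraries. Syt5 and Syt11 had log2 fold changes of -0.03 and -0.04, each with an SE of 0.06.

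**Figure D3:**
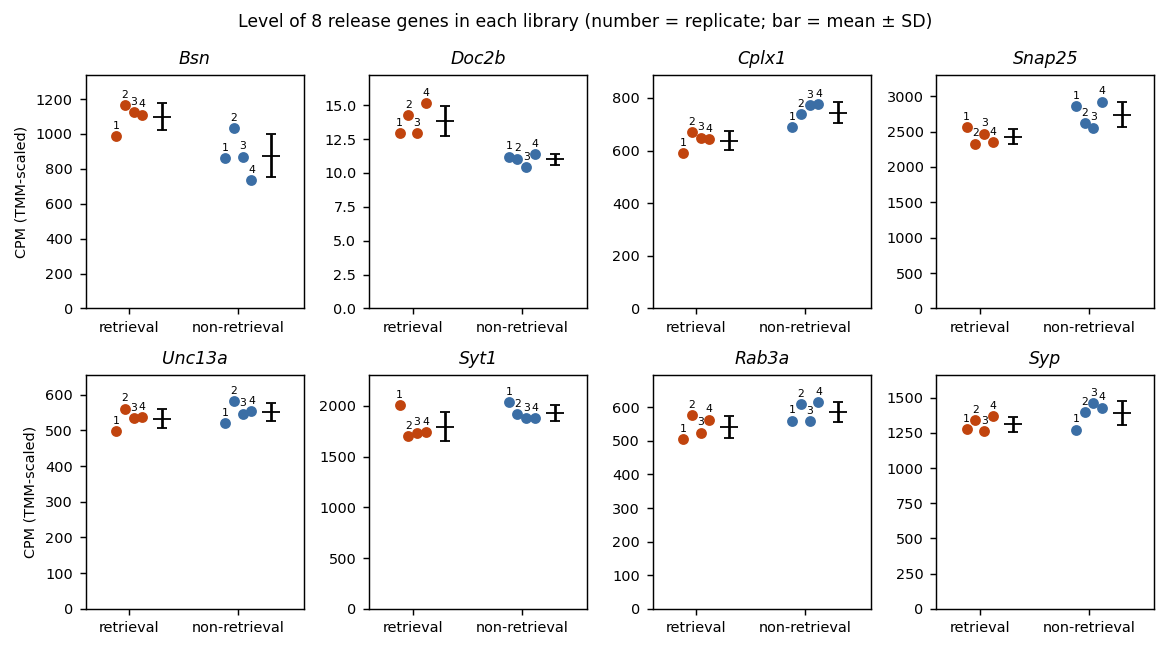
CPM of 8 release genes in each library (points, numbered by replicate) with mean ± SD over 4 libraries beside them, retrieval on the left of each panel and axes from 0. Doc2b (12.9 to 15.2 against 10.4 to 11.4 CPM) and Cplx1 (589 to 670 against 689 to 775 CPM) are the panels in which the groups do not overlap.

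Among the SNARE proteins and their regulators, 6 of 8 members had negative values and none passed the test. Cplx1 (ENSMUSG00000033615; chromosome 5, 108518554 to 108550024, minus strand) encodes complexin 1, which clamps and then speeds fusion of primed vesicles. Cplx1 stood at 589, 670.0, 649 and 643 CPM in retrieval replicates 1 to 4, against 689, 738, 772 and 775 CPM in non-retrieval replicates 1 to 4. The highest retrieval library stood below the lowest non-retrieval one, as was the case for 4.53% of tested genes. Its log2 fold change was -0.22 (SE 0.06, 95% interval -0.35 to -0.09), just outside the threshold at an edgeR adjusted p of 0.0513, where Doc2b at 0.0410 lay just inside it. DESeq2 (adjusted p = 0.0134), limma-voom (adjusted p = 0.0474) and the length and GC offset (edgeR adjusted p = 0.00375) put it past the threshold, as did leaving out non-retrieval replicate 1 (log2 fold change -0.25, edgeR adjusted p = 0.0360).

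Complexin 1 is enriched in inhibitory neurons, and parvalbumin interneuron markers were lower in the same libraries. Of 10 such markers, Pvalb, Syt2, Vamp1, Hapln4 and Scn4b fell and 5 did not pass, and 9 had negative values. Over all tested genes, 0.902% fell. The groups overlapped for Pvalb and Scn4b. The summed level of the 10 markers ran from 865 to 952 CPM in retrieval and from 1035 to 1089 CPM in non-retrieval, without overlap. Pvalb, the calcium-binding protein that names these cells, averaged 34.3 ± 5.28 CPM in retrieval and 45.6 ± 6.18 CPM in non-retrieval (SD, n = 4 each; log2 fold change -0.41, edgeR adjusted p = 0.0355). Of 10 general GABAergic interneuron markers none passed in edgeR, 1 was lower at an unadjusted p under 0.05, and 5 had positive and 5 negative values. Their summed level overlapped at 1477 to 1691 CPM in retrieval and 1583 to 1668 CPM in non-retrieval. The part of these markers in the level of Cplx1 was not tested. Cplx2, the complexin of most excitatory neurons, averaged 1344 ± 130.2 CPM in retrieval and 1418 ± 71.3 CPM in non-retrieval (log2 fold change -0.08, SE 0.07).

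Snap25 stood at 2557, 2329, 2471 and 2352 CPM in the retrieval libraries and at 2854, 2617, 2556 and 2921 CPM in the non-retrieval libraries. The highest retrieval library and the lowest non-retrieval library were about equal, and the others were separated (log2 fold change -0.17, SE 0.06, 95% interval -0.30 to -0.04, edgeR adjusted p = 0.135). The partners of Snap25 in the core complex differed less: Vamp2 averaged 946 ± 27.0 CPM in retrieval and 929.6 ± 13.1 CPM in non-retrieval, and Stx1a, the syntaxin of the plasma membrane, 405 ± 36.5 CPM in retrieval and 427 ± 38.7 CPM in non-retrieval (SD, n = 4 each). The 95% interval of Vamp2 was -0.09 to 0.14 on the log2 scale. Nsf, the ATPase that takes SNARE complexes apart after fusion, had a log2 fold change of -0.09 (SE 0.06, edgeR adjusted p = 0.415) and Napb, its adaptor beta-SNAP, of -0.12 (SE 0.07, edgeR adjusted p = 0.353). With the length and GC offset Nsf was past the threshold at -0.15 (edgeR adjusted p = 0.0404). Without retrieval replicate 1, Napb was past the threshold at -0.19 (edgeR adjusted p = 0.0425). Stxbp5, which encodes tomosyn, an inhibitor of SNARE assembly, had 0.04 (SE 0.07).

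The summed level of the 8 SNARE genes and regulators was 7460.3, 7447, 7703 and 7441 CPM in the retrieval libraries and 8103, 8033, 7886 and 8464 CPM in the non-retrieval libraries. The groups did not overlap, and the means were 7513 ± 127 CPM in retrieval and 8121 ± 246 CPM in non-retrieval (SD, n = 4 each). The summed active zone genes were at 2344 ± 68.9 CPM in retrieval and 2075 ± 169 CPM in non-retrieval (SD, n = 4 each), and Bsn was the largest part of the sum in each group. For all 36 genes the sum ran from 19769 to 19895 CPM in retrieval and from 20293 to 20914 CPM in non-retrieval, a mean difference of -3.30%. Without Snap25 the sums overlapped, at 17212 to 17567 CPM in retrieval and 17439 to 18297 CPM in non-retrieval, while without Syt1 they did not overlap. The 10 members with the highest CPM summed to 12386 to 12601 CPM in retrieval and 12748 to 13243 CPM in non-retrieval, a mean difference of -3.35%. The other 26 members summed to 7242 to 7383 CPM in retrieval and 7446 to 7671 CPM in non-retrieval, a mean difference of -3.23%. Neither of these sums overlapped between the groups. The sums of every role other than the SNARE genes and regulators overlapped. Many of the sums share members and all come from the same libraries, so they are not separate observations. Among single tested genes 11.1% did not overlap in either direction, and no such share was worked out for sums. The sums are descriptions and were not tested. Myelin marker transcripts were higher in the retrieval libraries, as given above, and their part in these sums was not tested.

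Among the Rab3 genes, Rab3a, the small GTPase carried by most synaptic vesicles, stood at 505, 576, 524 and 563 CPM in the retrieval libraries and at 560.1, 610.4, 559 and 614 CPM in the non-retrieval libraries. The groups overlapped (log2 fold change -0.11, SE 0.06, edgeR adjusted p = 0.360). Rab3b averaged 61.7 ± 4.28 CPM in retrieval and 59.7 ± 5.69 CPM in non-retrieval, and Rph3a, which encodes the Rab3 effector rabphilin, 718 ± 60.8 CPM in retrieval and 722 ± 54.1 CPM in non-retrieval (SD, n = 4 each). Both differences were smaller than the SD between libraries.

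Of the 7 vesicle membrane genes, none passed and 5 had negative values. Syp, which encodes synaptophysin, the most widely used vesicle marker, stood at 1275, 1342, 1261 and 1371 CPM in the retrieval libraries and at 1274, 1400.3, 1463 and 1430 CPM in the non-retrieval libraries. Non-retrieval replicate 1 lay within the retrieval range (log2 fold change -0.085, SE 0.06, edgeR adjusted p = 0.487). Syn1 and Syn2, whose proteins tether vesicles into a reserve pool, had log2 fold changes of 0.03 (95% interval -0.11 to 0.17) and -0.015 (95% interval -0.13 to 0.10). The SV2 glycoproteins had -0.05 for Sv2a, -0.12 for Sv2b and -0.01 for Sv2c, and none passed the test (edgeR adjusted p of at least 0.386). Without retrieval replicate 1, Sv2b was past the threshold at -0.20 (edgeR adjusted p = 0.0296).

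Syn3, the least abundant synapsin in this tissue, stood at 14.6, 15.4, 16.3 and 14.7 CPM in the retrieval libraries and at 14.2, 14.8, 10.5 and 10.8 CPM in the non-retrieval libraries. Non-retrieval replicates 3 and 4 were low, and the other non-retrieval libraries were close to the retrieval ones (log2 fold change 0.28, SE 0.11, edgeR adjusted p = 0.180). Timp3, a metalloproteinase inhibitor gene on the opposite strand inside Syn3, shares 1733 of the 12282 exon bases of Syn3 in the annotation and had 299.9% of its counts. Timp3 rose, with 46.4 ± 2.37 CPM in retrieval and 36.9 ± 2.21 CPM in non-retrieval (SD, n = 4 each; log2 fold change 0.33, SE 0.07, edgeR adjusted p = 0.0116). No source used here gives the strand setting of the counting. Reads of the shared stretch therefore cannot be assigned, and the part of Timp3 in the value of Syn3 was not tested.

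**Figure D4:**
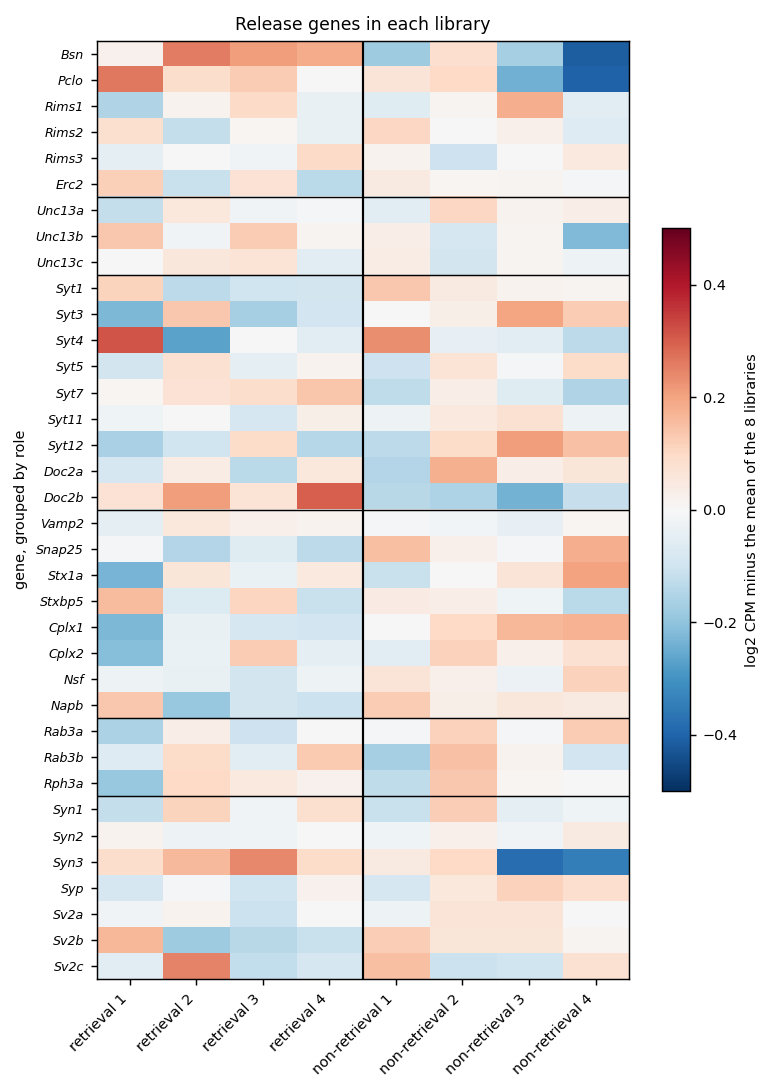
Log2 CPM of each release gene in each library minus its mean over the 8 libraries (colour, from -0.5 to 0.5), with roles divided by lines and retrieval left of the heavy line. Replicate 1 of each group shows a like pattern, with Syt4, Syt1, Napb and Sv2b high and Cplx1, Rph3a and Stx1a low for their group.

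Libraries differed within groups more than the groups did for many members. Retrieval replicate 1 was the highest or lowest retrieval library for 29 of the 36 genes, and non-retrieval replicate 1 was the highest or lowest of its group for 26. The other libraries were the highest or lowest of their group for 11 to 20 of the genes. Such counts over all tested genes were not worked out. After the group mean was taken off, log2 CPM of the replicate 1 libraries correlated at 0.694 across the 36 genes, and 28 genes deviated to the same side. The other same-numbered libraries correlated at 0.12 to 0.40, and different-numbered ones at -0.58 to 0.37. Retrieval replicate 2 correlated higher with non-retrieval replicate 4 (0.373) than with non-retrieval replicate 2 (0.121). This describes genes within shared libraries and is not a test.

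Fold changes were higher among members with long gene models. Of 6 members with models of at least 12 kilobases (Bsn, Pclo, Unc13a, Unc13b, Stxbp5 and Syn3), 5 had positive values with a median log2 fold change of 0.18, against 8 of the other 30 with a median of -0.04. Of all 16745 tested genes, 7997 had positive values, and the split at 12 kilobases was not made for them. Spearman's correlation between length and log2 fold change was 0.37 over the 36 members, 0.20 over all 16745 tested genes and 0.29 over the 9809 genes with at least 10 CPM. Between mean CPM and log2 fold change it was -0.38 over the members, 0.03 over all tested genes and 0.02 over those 9809. Among the members, length and level were not separated. The members were also longer than the tested genes at large, with a median model of 6911 against 4032 bases. With the length and GC offset, 1 member was called higher and 5 lower (Cplx1, Nsf, Syt1, Syt3 and Unc13a), and over all genes 828 were higher and 533 lower, against 615 and 151 without it.

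**Figure D5:**
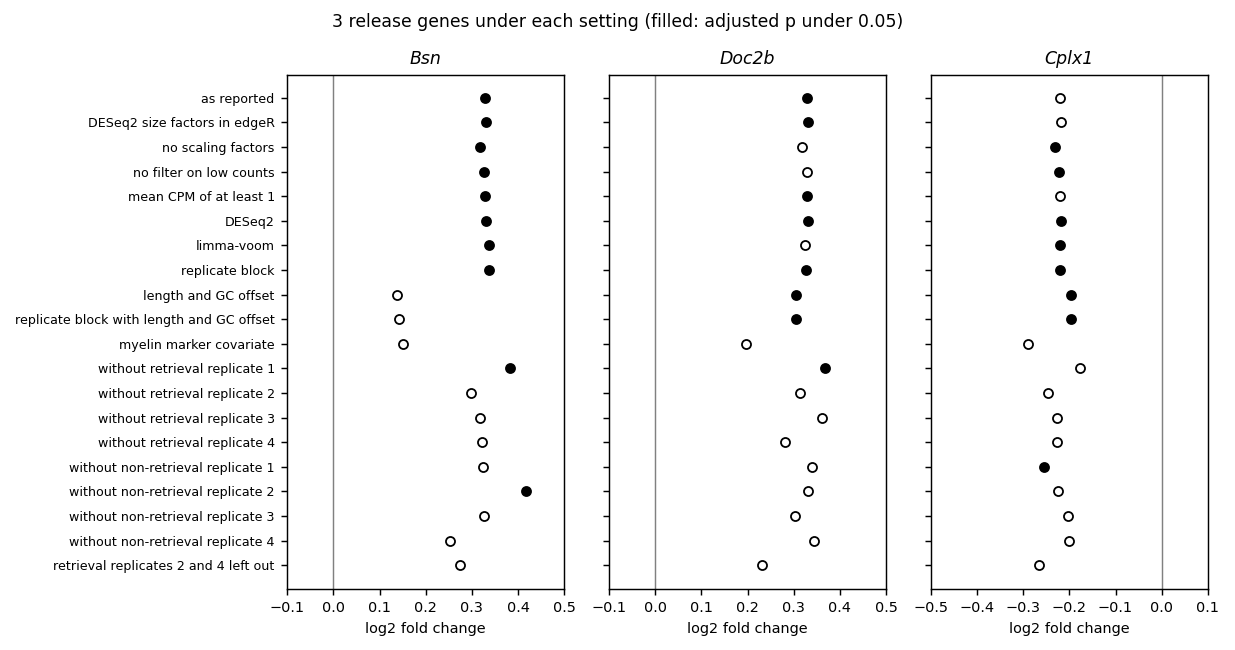
Log2 fold change of Bsn, Doc2b and Cplx1 under each setting, filled where the adjusted p was under 0.05. Signs hold throughout, while calls come and go: Bsn drops to 0.14 with the length and GC offset, and Cplx1, at an adjusted p of 0.0513 in the reported test, passes in several other settings.

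A list of 72 further genes of release, vesicle filling and recycling gave a like picture. Of these, 2 rose, 2 fell and 68 did not pass (median log2 fold change -0.02), a share that is again near the 4.57% of all genes. Syt2, the fast calcium sensor of parvalbumin terminals, fell, at 39.4, 41.7, 49.2 and 44.4 CPM in the retrieval libraries against 62.0, 59.2, 58.7 and 53.5 CPM in the non-retrieval libraries (log2 fold change of -0.42 with an SE of 0.08, edgeR adjusted p = 0.00427). Vamp1, a vesicle SNARE, fell as well, at 97.1 to 119 CPM in retrieval against 121 to 142 CPM in non-retrieval (log2 fold change -0.33, SE 0.07, edgeR adjusted p = 0.0167). Both are also on the parvalbumin list, whose lower sum is given above. The groups did not overlap for either of these genes, as was the case for 4.53% of tested genes in the lower direction.

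Rims4, a short RIM paralog, rose to 147, 156, 158 and 169 CPM in the retrieval libraries, against 129, 131, 138 and 120.2 CPM in the non-retrieval libraries (log2 fold change of 0.28 with an SE of 0.06, edgeR adjusted p = 0.0184). Snap29, a SNAP25 relative of endosomal and autophagic fusion, rose to 25.7 CPM in retrieval on average, against 20.4 CPM in non-retrieval (log2 fold change 0.33, SE 0.09, edgeR adjusted p = 0.0351). The groups did not overlap for either gene, as was the case for 6.59% of tested genes in the higher direction. Of the 72 further genes, 2 did not overlap as higher and 3 as lower. Syt2 was called whichever library was left out. The call was lost for Vamp1 without non-retrieval replicate 3 or 4, for Rims4 without retrieval replicate 3 or 4 or non-retrieval replicate 4, and for Snap29 without retrieval replicate 3 or 4 or non-retrieval replicate 2, 3 or 4. None of these 4 genes was called with the myelin covariate. None of the 16 vesicle membrane and filling genes and none of the 18 endocytosis genes passed in edgeR, and 0 of both lists had an unadjusted p under 0.05. Over all tested genes, 4.57% passed in edgeR and 18.5% had an unadjusted p under 0.05. DESeq2 and limma-voom called none of these 34 either. Their log2 fold changes lay between -0.12 and 0.11.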

How the data were processed

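The deposited table holds raw read counts per gene for 8 libraries. Per the submitters' processing notes, the authors used HISAT2 2.0.5, featureCounts 1.5.0-p3 and the GRCm38 build to make these counts. Annotation release and strand setting: not given in the sources used here.

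Genes were kept by edgeR's filterByExpr (minimum count 10), scaled by TMM, and tested with edgeR 4.0.16 (R 4.3.3) by the quasi-likelihood test of retrieval over non-retrieval, with Benjamini-Hochberg adjustment over all 16745 genes and a threshold of 0.05. DESeq2 1.42.0, limma 3.58.1 (voom), other scalings and filters, a loess offset (span 0.5) for gene length and GC, a myelin covariate and leaving out libraries were alternatives. The procedure was tested on simulated data. The labels do not say that pools came from separate cohorts, so p-values measure the spread between these pools.

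Genes were named by membership, and of the other release genes those that passed were named. The members, lists and alternatives were chosen with earlier results of these data known. Lengths are those of the deposited table, GC was taken from GENCODE transcripts and promoters from RefSeq (GRCm38.p6). Library totals of 25013503 to 29547978 counts set the precision, and intervals cover 95%.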

Additional observations from a re-analysis of the deposited data

Results flagged for a closer look

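In 3 of the 72 sets of 4 libraries examined (36 genes in each group), 1 library lay far from the other 3. Chance gives about 1 in 20 such sets, or 3.6 here. Syt1 stood at 2006 CPM in retrieval replicate 1, against 1699 to 1745 CPM in the other retrieval libraries. Nsf stood at 974 CPM in retrieval replicate 3, against 1012 to 1019 CPM in the others. Sv2c, an SV2 form known from basal ganglia neurons, stood at 27.5 CPM in retrieval replicate 2, against 21.2 to 22.2 CPM in the others. Retrieval replicate 2 was also the library highest in striatal projection neuron markers, at 430.4 CPM summed, and the part of that in Sv2c was not tested.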

How the results depend on the processing

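Calls of single release genes were near the threshold, and the cause of each move below was not tested. Over all genes, 766 were called, against 1791 with the replicate block, 1361 with the length and GC offset, 1928 with both, 120 with the myelin covariate and 382 without retrieval replicates 2 and 4, an alternative chosen after seeing the data. With 1 library left out, 330 to 1360 genes were called. The 2 members called higher became 1 without scaling factors, in limma-voom, with the offset and with the offset and replicate block, 4 with the replicate block, 0 with the myelin covariate and 0 without retrieval replicates 2 and 4, and 0 to 2 with 1 library left out. The 0 called lower became 1 without scaling factors, without the filter, in DESeq2 and in limma-voom, 2 with the replicate block, 5 with the offset, 9 with both, and 0 to 2 with 1 library left out. Of the 72 other release genes, 2 higher became 4 with the replicate block, 0 with the myelin covariate, 1 without retrieval replicates 2 and 4, and 0 to 3 with 1 library left out. The 2 lower became 6 with the offset, 7 with both, 0 with the myelin covariate, 1 without retrieval replicates 2 and 4, and 1 to 3 with 1 library left out.

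Replicate numbers were not taken as pairs: correlations of same-numbered libraries over all genes were 0.027 to 0.221, with 1 of 4 over 0.1, although each library correlated best with its own number. The replicate block called Bsn, Doc2b, Pclo and Syt7 higher and Cplx1 and Snap25 lower.

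Signs changed for the members named next, and none of the values with a changed sign passed the threshold. On the log2 scale the myelin covariate gave 0.070 for Rims2, 0.142 for Erc2, -0.001 for Vamp2, 0.018 for Napb, -0.162 for Rab3b and -0.146 for Syn1. Without retrieval replicates 2 and 4 the values were 0.027 for Rims2, -0.022 for Rims3, 0.080 for Erc2, -0.040 for Rab3b and -0.056 for Syn1. The offset, without and with the replicate block, gave -0.071 and -0.070 for Rims3, -0.016 and -0.014 for Unc13b, -0.001 and -0.002 for Unc13c, and -0.045 and -0.046 for Stxbp5. Syt4 was at -0.004 without scaling factors and at -0.002 in limma-voom and with the replicate block. With 1 library left out, values ran from -0.074 to 0.018 for Rims1, -0.059 to 0.001 for Rims2, -0.011 to 0.045 for Rims3, -0.063 to 0.015 for Erc2, -0.102 to 0.092 for Syt4, -0.061 to 0.007 for Syt5, -0.048 to 0.057 for Rph3a, -0.004 to 0.079 for Syn1 and -0.10 to 0.046 for Sv2c.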

Other observations

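Among 8 pairs of related release genes compared per kilobase within each library, the ratio of Rab3b to Rab3a was, besides that of Doc2b to Doc2a, the other one whose groups did not overlap. Rab3b amounted to 0.0702 to 0.0743 of Rab3a in retrieval libraries and to 0.0582 to 0.0693 in non-retrieval libraries. Cplx1 amounted to 0.970 to 1.121 of Cplx2 in retrieval and to 1.11 to 1.24 in non-retrieval, with overlap. Pclo amounted to 0.226 to 0.303 of Bsn in retrieval and to 0.243 to 0.303 in non-retrieval, with overlap. These ratios are descriptions and were not tested. Doc2b itself did not overlap between the groups, so its ratio is not a separate result. Among single tested genes 11.1% did not overlap in either direction, and no such share was worked out for ratios.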
